A study of Mus musculus with 12 samples.

Results

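Polycomb repressive complex 1 (PRC1) is described here through 9 of its subunit genes, Scml2, Scmh1, Cbx2, Cbx7, Cbx8, Bmi1, Pcgf2, Phc1 and Ring1, in tumors of a mouse lung cancer model and normal mouse lung. The genes were chosen by name from a table of 30399 genes, all 9 were found in it, and all 9 passed the filter on low values (a mean of at least 1). The set was put together with Scml2 already known to be far higher in the tumors. Values of the 9 genes in tumors against normal lung are therefore given as a description with no test. The gene lists beyond the 9 were also chosen with earlier results of these data known, so their calls and shares are descriptive too.

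The series profiled 5 samples labelled normal lung and 7 labelled tumor by poly-A RNA sequencing. Its title places them in a model of lung cancer induced in mice with CRISPR/Cas9 and no viral vector. The labels give neither strain, genotype, targeted genes, age nor sex, so what the groups share is not known here. The tumors carry 4 title numbers, 153, 156, 159 (tumors 3 and 4) and 201 (tumors 5 to 7), and the titles name the trachea for tumors 1 and 7 and the lung for tumors 3 to 6. Nothing says that the samples came from separate animals, so the p-values below measure only the spread between these samples, which may in part be technical.

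PRC1 is a group of chromatin complexes that keep genes silent. The RING subunits, Ring1 and its paralog Rnf2, are ubiquitin ligases that mark histone H2A, and each binds 1 PCGF subunit, which decides the kind of complex. Canonical PRC1 adds a CBX protein, whose chromodomain reads the methyl mark left on histone H3 by PRC2, a PHC protein, which links complexes to one another through its SAM domain, and a loosely held SCM protein. Variant PRC1 holds Rybp or Yaf2 in place of the CBX protein. The complex is best known for silencing Hox genes and the cell-cycle inhibitor locus Cdkn2a.

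Values are normalized read counts, that is, reads per gene divided by 1 size factor per sample and not by gene length. Recovered depth was 11126432 to 17032234 reads per normal lung and 13093843 to 24217633 reads per tumor. At these depths 3 reads, taken as the floor, amount to at most 4.85 normalized counts in a normal lung and 3.57 in a tumor, for counting error only. The normal lungs carried lung epithelial markers, and the tumors carried neuroendocrine markers, a cell type that the labels do not name. The summed level of 8 lung epithelial genes was 284415 to 509724 in normal lung and 481 to 3216 in tumors, and that of 8 neuroendocrine genes was 231 to 292 and 34114.5 to 137811. The summed level of 8 proliferation genes was 1472 to 2888 in normal lung and 21134 to 48937 in tumors. Sums for 5 endothelial genes (54820.5 to 68035 against 701 to 4556) and 5 leukocyte genes (81901 to 161759 against 321 to 10716.5) were lower in tumors. In these bulk samples fewer cells of a type and less RNA per cell cannot be told apart. The part of tissue make-up and proliferation in the results below was not tested.

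Among the 9 subunits, Scml2, Cbx2, Phc1, Pcgf2 and Scmh1 had every tumor above every normal lung, Cbx7 and Ring1 were lower in every tumor, and Bmi1 and Cbx8 overlapped between the groups. Of the 23674 genes tested, 20.1% had every tumor above every normal lung and 18.4% had every tumor below. The log2 fold change was at least 1 for Scml2, Cbx2, Phc1 and Pcgf2, against 26.2% of all genes in that direction. It was -1 or less for 0 of the 9, against 26.8% of all genes. The median log2 fold change of the 9 was 0.68, beside 0.04 over all genes tested. Since the set was made with this contrast known, nothing is read from these shares.

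**Figure D1:**
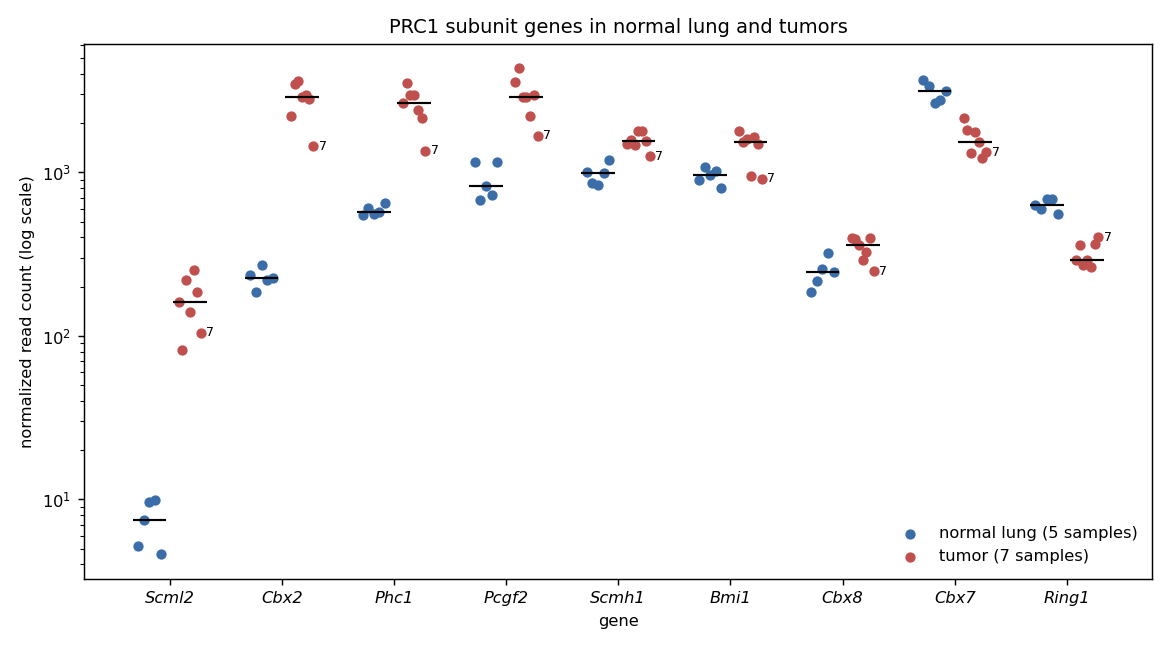
Normalized read counts of the 9 PRC1 subunit genes on a log scale, 1 point per sample, with 5 normal lungs in blue and 7 tumors in red. Black lines mark medians and the digit 7 marks tumor 7. Scml2 lies between 4.60 and 9.87 in normal lung and between 82.2 and 254 in tumors, while Bmi1 and Cbx8 overlap between the groups.

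The SCM proteins Scml2 and Scmh1 carry MBT repeats and a SAM domain and join canonical PRC1 in small amounts. Scml2, an X-linked gene known in the mouse for its role in the male germ line, had 5.16, 7.53, 9.69, 9.87 and 4.60 normalized counts in turn in normal lungs 1 to 5, the order used below. In tumors it ranged from 82.2 (tumor 2) through a median of 160 to 254 (tumor 5). The groups lay far apart, with 9.87 as the highest normal lung and 82.2 as the lowest tumor. Group means were 7.37 ± 2.46 (SD, n = 5) and 164 ± 61.5 (SD, n = 7), a 22.2-fold ratio. The log2 fold change was 4.26 (SE 0.34) on the log2(value + 1) scale. That scale is compressed for a gene with so few reads. Normal lung values rest on only 4 to 7 reads per library, and tumor values on 69 to 314.

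Because Scml2 lies on the X chromosome and the groups differ in Y-linked expression, both were set side by side. The mean log2 level of 4 Y-linked genes was 9.18 to 9.43 in 4 normal lungs and 9.14 in tumor 1, and 0 to 1.48 in normal lung 3 and the other 6 tumors. Among samples with Y-linked expression, Scml2 was 4.60 to 9.87 in 4 normal lungs and 160 in tumor 1. Among samples without it, Scml2 was 9.69 in the single normal lung and 82.2 to 254 in 6 tumors. Each side of this split holds 1 group with a single sample. In a fit that took the Y-linked level into account, the log2 fold change was 4.12.

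Male germ cell genes were also looked at, since Scml2 is known from those cells. Summed levels of 9 such genes were 10.3 to 20.7 in normal lung and 36.4 to 98.8 in tumors. Of the 6 with enough signal to test, 3 were called higher by limma (adjusted p under 0.05) and 3 did not pass, where 31.4% of all genes tested were called higher. Those called were Sycp1, at 0 to 5.75 normalized counts in the normal lungs and 2.02 to 72.7 across tumors (limma adjusted p = 0.0432), Acrv1, listed at 0 in every normal lung and at 1.19 to 9.71 across tumors (adjusted p = 2.26e-04), and Prm1, at 0 to 4.85 and 2.38 to 10.5 (adjusted p = 0.0466). Sycp1 encodes a protein of paired meiotic chromosomes, Acrv1 a protein of the acrosome and Prm1 a protamine of sperm. Acrv1 and Prm1 averaged 4.10 and 6.71 normalized counts in tumors, near the floor of 3 reads, so their calls rest on few reads. Sycp1 was near that floor in tumors 5 to 7 (2.02 to 4.04) and stood at 9.50 to 72.7 in tumors 1 to 4. Ddx4 (5.31 ± 4.32 in normal lung, 15.1 ± 10.6 in tumors, limma adjusted p = 0.151) and Dazl (0.69 ± 0.99 and 1.78 ± 2.22, adjusted p = 0.391), both germ line RNA regulators, did not pass. Their part in the Scml2 difference was not tested.

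Scmh1 had 1006, 863, 837, 992 and 1192 normalized counts across the 5 normal lungs. Its tumor values ran from 1254 (tumor 7) through a median of 1549 to 1795 (tumor 4). The groups did not overlap, but the distance was small, 1254 against 1192 at its narrowest. The ratio of means was 1.60 and the log2 fold change 0.68 (SE 0.13). Per kilobase of exon, Scml2 stood at 0.00998 ± 0.00414 of the Scmh1 level among normal lungs (SD, n = 5) and 0.133 ± 0.0455 in tumors (SD, n = 7). Scmh1 thus stayed the more abundant of the pair in all 12 samples. The third gene of the family, Scml4, had 231 to 475 normalized counts in the normal lungs and 355 to 7414 across tumors. The top value was in tumor 1, and the other 6 tumors reached at most 1399. Its log2 fold change of 1.29 (SE 0.62, limma adjusted p = 0.0854) did not pass, though edgeR (2.44, adjusted p = 0.0190) and DESeq2 (2.37, adjusted p = 0.00224) on 11 samples called it. So did limma with the Y-linked covariate (2.56, adjusted p = 0.00537), and tumor 1 is the only tumor with Y-linked expression. Over the alternatives the log2 fold change of Scml4 ran from 0.74 to 2.56.

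The CBX proteins read the PRC2 mark and set which canonical complex forms. Cbx2 had 235, 185, 270, 220 and 225 normalized counts across the 5 normal lungs. Tumor values ran from 1443 (tumor 7) through a median of 2913 to 3651 (tumor 3). Even the lowest tumor stood far above the highest normal lung, at 1443 against 270 normalized counts. Means were 227 ± 30.4 (SD, n = 5) and 2787 ± 753 (SD, n = 7), a 12.3-fold ratio, with a log2 fold change of 3.57 (SE 0.21), the largest of the 9 after Scml2.

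Cbx7, which is known as the main CBX protein of stem cells and many adult tissues, went the other way. Normal lungs 1 to 5 had 3670, 3365, 2645, 2786 and 3140 normalized counts. Tumors ran from 1221 (tumor 6) through a median of 1535 to 2142 (tumor 1). Every tumor was below every normal lung, with means of 3121 ± 418 (SD, n = 5) and 1588 ± 332 (SD, n = 7), 1.97-fold lower, and a log2 fold change of -0.99 (SE 0.16). The annotated span of Cbx7 overlaps Apobec3 on the opposite strand, and use of the strand in counting is not given in the sources used here, so its count is uncertain.

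Cbx8 had 184, 217, 257, 323 and 246 normalized counts across the 5 normal lungs, against 248 (tumor 7) to 398 (tumor 6) in tumors, with a tumor median of 358. The groups overlapped, with a log2 fold change of 0.49 (SE 0.19).

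The make-up of the CBX genes analysed here, Cbx2, Cbx6, Cbx7 and Cbx8, was compared per kilobase of exon, as shares of their summed level in each sample. Cbx7 held 79.8% ± 4.25 (SD, n = 5) among normal lungs and 25.4% ± 6.5 (SD, n = 7) in tumors. Cbx2 held 8.95% ± 1.74 and 65.0% ± 7.33. Cbx2 was the most abundant of these genes in all 7 tumors and Cbx7 in all 5 normal lungs. The ratio of Cbx2 to Cbx7 was 0.0837 to 0.155 in normal lung and 1.59 (tumor 1) to 4.24 (tumor 3) in tumors. Cbx8 held 11.3% ± 3.07 and 9.59% ± 1.54, with overlapping groups. Cbx6 reached at most 1.08 normalized counts in any normal lung and 2.02 in any tumor. Its span overlaps that of Npcd on the same strand, which had 8.46 to 77.4 and 109 to 610, so its level cannot be read from the table and the shares are in effect those of 3 genes.

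**Figure D2:**
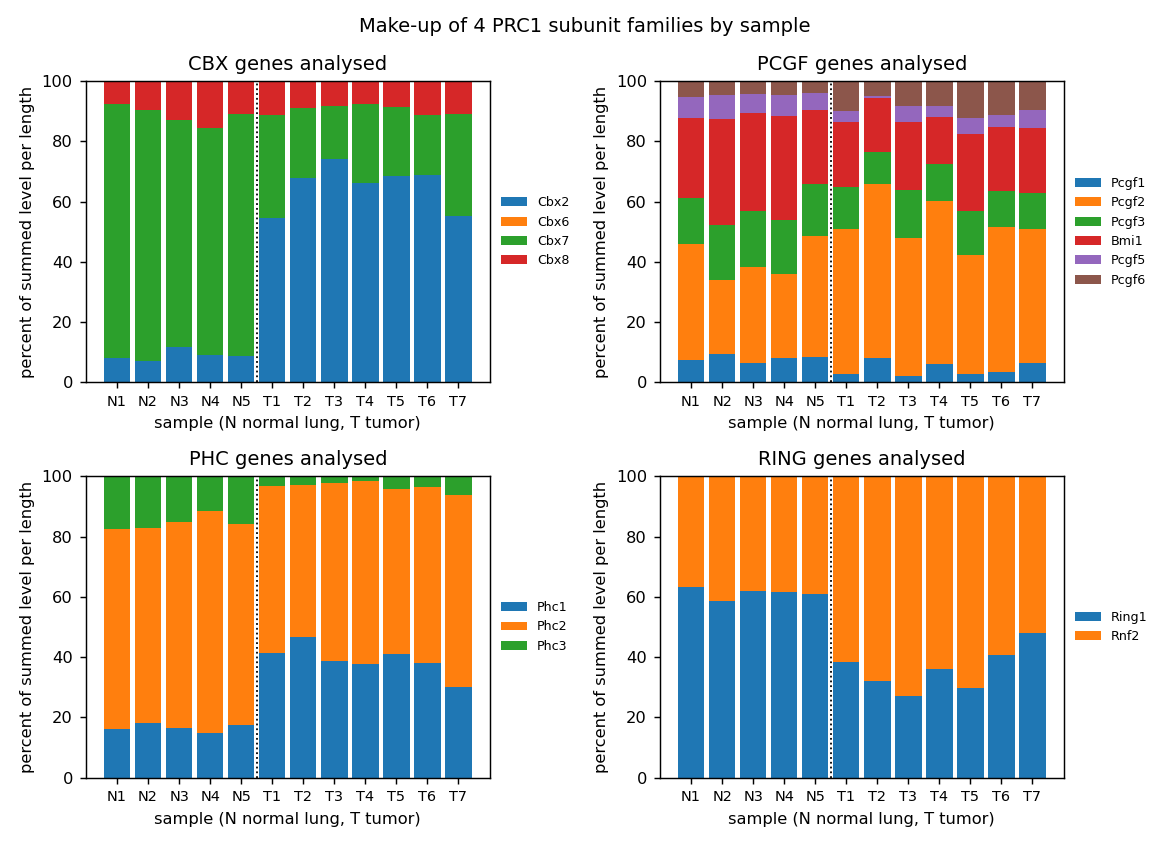
Stacked bars show, for each of 12 samples (N1 to N5 normal lung, T1 to T7 tumor), the percent of the summed level per length that each gene holds among the genes shown of the CBX, PCGF, PHC and RING families. Cbx2 averages 8.95% of the CBX genes shown in normal lung and 65.0% in tumors, and Ring1 averages 61.2% and 36.0% of the RING family.

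The PHC proteins link PRC1 complexes into larger assemblies. Phc1 had 546, 610, 557, 570 and 646 normalized counts across the 5 normal lungs, the tightest group of any of the 9 on the log2 scale (SD 0.10). Tumors ran from 1359 (tumor 7) through a median of 2654 to 3513 (tumor 2), and every tumor was above every normal lung. The ratio of means was 4.40 and the log2 fold change 2.08 (SE 0.20). Of its paralogs, Phc2 was higher in tumors (0.62, SE 0.14, limma adjusted p = 0.00209) and Phc3 was lower (-1.39, SE 0.18, adjusted p = 1.49e-05), at 1802 ± 216 normalized counts (SD, n = 5) against 698 ± 157 (SD, n = 7). Per length Phc1 held 16.6% ± 1.27 of the family in normal lung and 39.1% ± 4.99 in tumors, and Phc3 held 15.6% ± 2.39 and 3.47% ± 1.49. Phc2 was the most abundant of the family in every sample, at 67.8% ± 3.42 and 57.5% ± 4.28. With the longest transcript as the length, Phc1 held 12.5% in normal lung and 31.2% in tumors.

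Pcgf2 (also called Mel18) and Bmi1 (Pcgf4) are the PCGF proteins of canonical PRC1. Pcgf2 had 1159, 675, 829, 731 and 1163 normalized counts across the 5 normal lungs. Its tumor values ran from 1675 (tumor 7) through a median of 2912 to 4337 (tumor 2). The groups did not overlap, the ratio of means was 3.22, and the log2 fold change was 1.67 (SE 0.23).

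Bmi1 had 905, 1079, 963, 1014 and 801 normalized counts across the 5 normal lungs, against 916 to 1791 in tumors, with a median of 1533. Tumors 4 (950) and 7 (916) lay within the normal lung range and the other 5 above it, between 1489 and 1791. The log2 fold change was 0.54 (SE 0.19). Per length, the ratio of Pcgf2 to Bmi1 was 0.705 to 1.64 in normal lung and 1.53 to 3.45 in tumors, so the groups overlapped in tumor 5 alone. Bmi1 held 30.7% ± 4.81 of the PCGF family among normal lungs (SD, n = 5) and 20.9% ± 3.23 in tumors (SD, n = 7). Pcgf2 held 32.6% ± 6.59 and 48.2% ± 6.09. With the longest transcript as the length, Bmi1 held 24.7% in normal lung and 16.5% in tumors.

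The 4 PCGF genes of variant PRC1 were tested. Pcgf6, which marks a complex with Mga, Max and E2f6, was higher in tumors (2.05, SE 0.22, limma adjusted p = 3.50e-06), as was Pcgf3 (0.65, SE 0.18, adjusted p = 0.00761). Pcgf1 (0.15, SE 0.33, adjusted p = 0.715) and Pcgf5 (0.16, SE 0.36, adjusted p = 0.716) did not pass. Pcgf5 stood at 205 normalized counts in tumor 2 and between 726 and 1182 in the other tumors, and without tumor 2 it passed (0.47, adjusted p = 0.0173).

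Ring1 is the catalytic subunit among the 9. It had 631, 595, 683, 693 and 560 normalized counts across the 5 normal lungs. Tumors ran from 262 (tumor 5) through a median of 293 to 401 (tumor 7), and every tumor was below every normal lung. Means were 632 ± 56.8 (SD, n = 5) and 320 ± 53.3 (SD, n = 7), 1.98-fold lower, with a log2 fold change of -0.99 (SE 0.15). Rnf2 (Ring1b), the other RING subunit, was higher in tumors, at 510 ± 43.0 and 739 ± 162 normalized counts (0.51, SE 0.17, limma adjusted p = 0.0166). Its call was lost with the Y-linked covariate (0.37, adjusted p = 0.182), and its span overlaps Trmt1l on the opposite strand. Per length, Ring1 was 1.41 to 1.71 times the Rnf2 level in normal lung and 0.369 to 0.921 times in tumors. Ring1 was thus the more abundant of the pair in every normal lung and Rnf2 in every tumor. The summed RING level per kilobase was 318 ± 25.7 in normal lung and 278 ± 37.6 in tumors, with overlapping groups. The PHC sum was 666 ± 42.0 and 1230 ± 236 and the PCGF sum 787 ± 51.6 and 1710 ± 364, with every tumor above every normal lung. The sum of the CBX genes analysed was 601 ± 49.9 and 993 ± 192. Tumor 7, at 612, overlapped the normal lungs, which spanned 541 to 671.

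**Figure D3:**
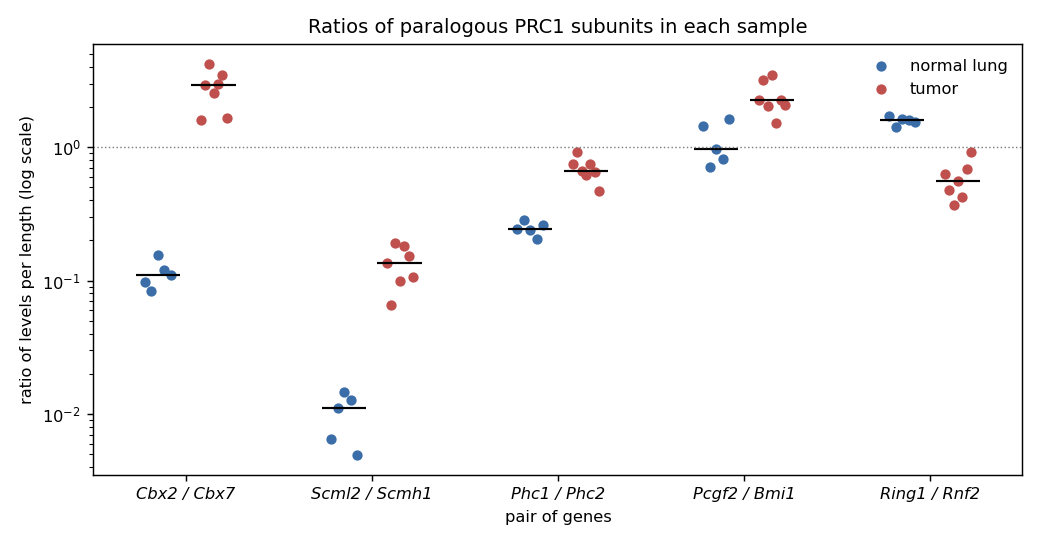
Ratio of levels per kilobase for 5 pairs of paralogous PRC1 genes, on a log scale, 1 point per sample (blue normal lung, red tumor), with black lines at medians and a dotted line at equal levels. The ratio of Cbx2 to Cbx7 crosses that line, from 0.0837 to 0.155 in normal lung to 1.59 to 4.24 in tumors, and the ratio of Ring1 to Rnf2 crosses it in the other direction.

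The order of the 9 genes by level per kilobase differed between the tissues. The length used was that of all exons of a gene merged. For Scmh1 this is 7731 bases, against 3544 for its longest transcript, so the rank of Scmh1 below depends on the length chosen. In normal lung it ran Cbx7 (481 ± 64.5 normalized counts per kilobase, SD, n = 5), Pcgf2, Bmi1, Ring1, Scmh1, Phc1, Cbx8, Cbx2 and Scml2 (1.21 ± 0.41). Neighbours in this order were not apart in every sample for Pcgf2 and Bmi1, Scmh1 and Phc1, or Cbx8 and Cbx2. In tumors it ran Pcgf2 (833 ± 245, SD, n = 7), Cbx2 (655 ± 177), Phc1 (486 ± 131), Bmi1, Cbx7 (245 ± 51.2), Scmh1, Ring1 (98.7 ± 16.4), Cbx8 (93.6 ± 16) and Scml2 (26.9 ± 10.1). There Pcgf2 exceeded Cbx2 in 5 of 7 tumors and Ring1 exceeded Cbx8 in 4 of 7. Bmi1 exceeded Cbx7, and Cbx7 exceeded Scmh1, in 6 of 7.

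The start regions of the genes whose groups did not overlap are shown, with their CG dinucleotides, the sites of DNA methylation in mammals. RefSeq start regions (GRCm38.p6) matched 8 of the 9 genes, all but Cbx2. Per the submitters' processing notes the counts were made on GRCm39, so these coordinates are of RefSeq's build and not of the files. Each sequence is the 250 bases before the annotated start, read 5′ to 3′ on the gene's strand, with CG in capitals.

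Scml2 (chrX:161162500-161162749, plus strand): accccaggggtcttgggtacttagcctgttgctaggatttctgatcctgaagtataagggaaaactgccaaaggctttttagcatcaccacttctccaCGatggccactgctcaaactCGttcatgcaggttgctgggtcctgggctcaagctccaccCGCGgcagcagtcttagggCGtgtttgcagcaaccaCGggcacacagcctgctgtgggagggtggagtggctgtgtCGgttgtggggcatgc
Phc1 (chr6:122340228-122340477, minus strand): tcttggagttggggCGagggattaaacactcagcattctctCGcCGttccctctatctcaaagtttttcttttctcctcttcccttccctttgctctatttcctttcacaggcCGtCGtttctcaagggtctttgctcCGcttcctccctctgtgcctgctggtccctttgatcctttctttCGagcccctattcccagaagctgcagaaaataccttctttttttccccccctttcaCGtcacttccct
Pcgf2 (chr11:97699649-97699898, minus strand): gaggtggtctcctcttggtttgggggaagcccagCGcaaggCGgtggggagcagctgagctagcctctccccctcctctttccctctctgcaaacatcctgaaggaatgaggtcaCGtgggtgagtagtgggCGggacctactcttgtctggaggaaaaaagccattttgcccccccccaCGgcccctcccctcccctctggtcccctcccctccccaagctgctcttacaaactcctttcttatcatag
Scmh1, 1 listed start (chr4:120405098-120405347, plus strand): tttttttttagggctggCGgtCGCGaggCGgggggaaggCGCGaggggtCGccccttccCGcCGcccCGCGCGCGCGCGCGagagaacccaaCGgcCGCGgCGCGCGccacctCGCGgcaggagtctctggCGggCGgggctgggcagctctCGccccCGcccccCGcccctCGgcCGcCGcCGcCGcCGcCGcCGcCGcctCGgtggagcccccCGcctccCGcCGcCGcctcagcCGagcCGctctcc
Scmh1, another listed start (chr4:120452994-120453243, plus strand): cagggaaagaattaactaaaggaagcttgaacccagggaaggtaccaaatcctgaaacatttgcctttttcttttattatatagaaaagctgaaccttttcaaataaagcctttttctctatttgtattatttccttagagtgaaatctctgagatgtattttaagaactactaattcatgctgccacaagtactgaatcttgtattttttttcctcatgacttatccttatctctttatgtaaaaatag
Cbx7 (chr15:79932647-79932896, minus strand): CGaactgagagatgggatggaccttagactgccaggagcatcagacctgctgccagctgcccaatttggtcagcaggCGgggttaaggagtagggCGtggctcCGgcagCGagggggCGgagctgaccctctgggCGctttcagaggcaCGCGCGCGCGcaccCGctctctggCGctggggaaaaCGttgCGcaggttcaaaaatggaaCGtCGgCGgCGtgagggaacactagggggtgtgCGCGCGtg
Ring1 (chr17:34024681-34024930, minus strand): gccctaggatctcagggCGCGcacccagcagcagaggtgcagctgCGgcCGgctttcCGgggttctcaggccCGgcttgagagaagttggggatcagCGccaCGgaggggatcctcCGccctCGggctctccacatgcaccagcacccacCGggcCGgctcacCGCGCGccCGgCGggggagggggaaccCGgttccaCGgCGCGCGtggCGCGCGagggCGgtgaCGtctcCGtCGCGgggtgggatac

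The windows of Scml2, Phc1 and Pcgf2, all higher in tumors, held 7, 8 and 5 CG, and those of Scmh1, also higher in every tumor, held 45 and 0. Those of Cbx7 and Ring1, both lower in tumors, held 23 and 30. Over 32851 RefSeq windows of this length the median was 6, and 57.0%, 59.7%, 49.6%, 88.0% and 94.8% of them had as many CG as, or fewer than, the window of Scml2, Phc1, Pcgf2, Cbx7 and Ring1. Bmi1 and Cbx8, whose groups overlapped, held 21 and 22. The share of windows with as many CG or fewer was 99.7% and 7.87% for the 2 Scmh1 windows. It was 85.2% for Bmi1 and 86.7% for Cbx8. An E2F-type motif, TTTNNCGC with each N being C or G, was searched on both strands. It was in 0 of the 9 windows of these 8 genes, both Scmh1 starts counted, and in 1.86% of all windows. A motif so rare is likely to be absent from 9 windows of any genes, so nothing is read from this count. These are counts of letters in annotated windows, and which start the tumors used was not measured.

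Outside the 9, 32 further genes of canonical and variant PRC1 were analysed, and 31 had enough signal to test. By limma 18 were higher and 2 lower in tumors, and 11 did not pass (adjusted p under 0.05 over all 23674 genes). Over all genes 31.4% were called higher and 30.1% lower. The median log2 fold change of the 31 was 0.65, beside 0.04 over all genes. The values of every tumor lay above every normal lung for 15 of the 31 and below for 2, beside 20.1% and 18.4% of all genes tested. Since this list too was made with earlier results of these data known, nothing is read from these shares.

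Of 4 tested canonical genes, Phc2 and Rnf2 were higher, Phc3 was lower, and Scml4 did not pass. Of 27 variant genes, 16 were higher and 1 lower. The largest increases were in Tfdp1, a partner of E2F factors found in the Pcgf6 complex, Auts2, a neuronal gene whose product joins Pcgf3 and Pcgf5 complexes, and Pcgf6. Tfdp1 rose from 516 ± 56.0 (SD, n = 5) to 4560 ± 957 normalized counts (SD, n = 7), or 3.12 on the log2 scale (limma SE 0.17, adjusted p = 6.71e-09). Auts2 rose from 528 ± 212 to 3235 ± 1025 (2.63, SE 0.27, adjusted p = 2.47e-06). Max, the partner of Myc and of Mga, was the variant gene that fell, by 0.79 in log2 terms (limma SE 0.16, adjusted p = 6.78e-04). Spans of 6 of the 32 genes overlap another gene of the table, which leaves their counts uncertain.

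**Figure D4:**
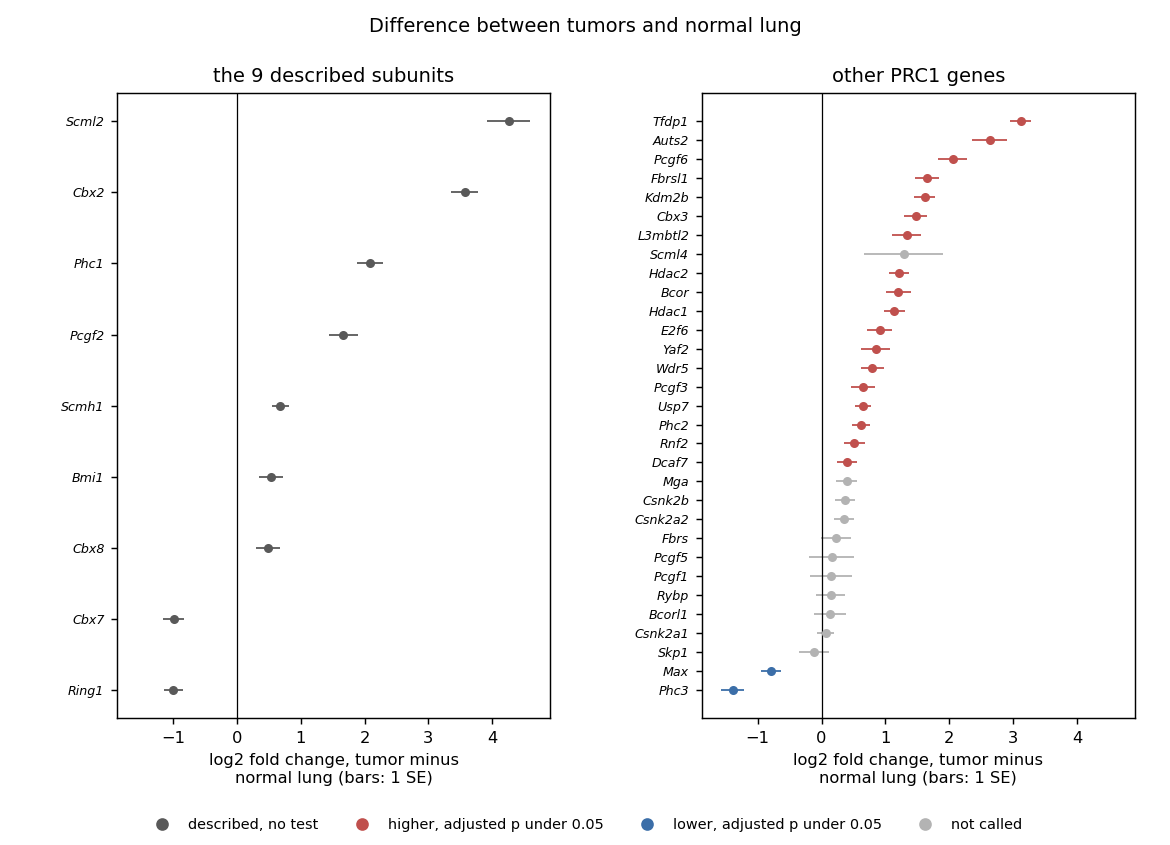
Log2 fold change between tumors and normal lung on the log2(value + 1) scale, with bars of 1 SE, for the 9 subunits described (left, no test) and 31 other PRC1 genes (right). Red and blue mark genes called higher (18) and lower (2) by limma, and grey marks the 11 that did not pass.

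Enzymes that remove the PRC1 mark from H2A, and the Asxl cofactors of Bap1, were listed as well. Of 6 tested, 4 were called higher by limma, where 31.4% of all genes were, and Usp16 (0.18, SE 0.15, adjusted p = 0.301) and Mysm1 (-0.22, SE 0.14, adjusted p = 0.192) did not pass. Asxl3, a neuronal partner of the deubiquitinase Bap1, had 6.45 to 18.3 normalized counts in the normal lungs and 419 to 1079 across tumors, and rose by 5.91 in log2 terms (limma SE 0.30, adjusted p = 3.94e-09). Bap1 rose by 0.76 (SE 0.22, adjusted p = 0.00930) and Asxl2 by 0.50 (SE 0.16, adjusted p = 0.0150), and both calls were lost with the Y-linked covariate (0.63, adjusted p = 0.101, and 0.42, adjusted p = 0.126). Spans of 3 of these 6 genes, Asxl2 and Usp16 among them, overlap another gene of the table, which leaves their counts uncertain.

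Known targets of Polycomb silencing were called no more often than genes at large in either direction. Of 24 such genes analysed, 16 were tested, of which 2 were called higher by limma, 4 lower and 10 did not pass, where 31.4% of all genes were called higher and 30.1% lower. Cdkn2a, which encodes the inhibitor p16 and the p53 activator Arf, had 27.6 to 58.1 normalized counts in the normal lungs and 1479 to 2664 across tumors, and rose by 5.59 in log2 terms (limma SE 0.22, adjusted p = 4.91e-10). Its neighbour Cdkn2b, a like inhibitor, fell by 2.91 (SE 0.36, adjusted p = 1.22e-05), from 1260 ± 372 (SD, n = 5) to 182 ± 90.7 (SD, n = 7). Of 14 Hox genes tested, Hoxa2, Hoxa7 and Hoxa9 were lower, 1 was higher and 10 did not pass, and 8 more were too low to test. Hoxa7 went from 286 ± 96.5 to 18.7 ± 27.0 normalized counts (-4.81, SE 0.80, adjusted p = 1.73e-04) and Hoxa2 from 120 ± 25.5 to 21.2 ± 34.3 (-3.37, SE 0.67, adjusted p = 7.03e-04). The span of Hoxa7 overlaps Hoxaas3 on the opposite strand and that of Hoxa2 overlaps Gm28308 on the same strand, so both counts are uncertain. Hoxa2 overlapped between the groups, since tumor 1 had 98.1 and the normal lungs 77.4 to 143, while the other 6 tumors had 2.43 to 18.6. Without tumor 1 the log2 fold change of Hoxa2 was -3.88. Over the alternatives that gave a result for this gene, which DESeq2 did not, it ran from -4.14 to -2.19. Not passing does not mean that a Hox gene was level among tumors. Hoxb8 had 17.2 to 40.9 normalized counts in the normal lungs, and among tumors 16440 in tumor 2, 6523 in tumor 5 and 0 in tumors 1 and 3 (log2 SD 5.72, limma adjusted p = 0.406). Hoxb9 had at most 1.62 in the normal lungs, 10807 in tumor 2 and 352 in tumor 5 (adjusted p = 0.115). Hoxa9 (means of 2.08 and 0.34) and the gene called higher, Hoxd13 (0.28 and 2.63), had group means under the floor of 3 reads, so no fold is given for either. Hoxd13 was above the floor of the library in tumors 2, 3 and 4, at 5.96, 5.95 and 3.59. The Hoxd13 call (limma adjusted p = 0.0479) was lost with quantile normalization (adjusted p = 0.186) and with the Y-linked covariate (adjusted p = 0.327), among others.

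Among the tumors, tumor 7 lay nearest to the normal lung mean in 6 of the 9 subunits (Scmh1, Cbx2, Cbx8, Pcgf2, Phc1 and Ring1). It had the lowest tumor value of Scmh1, Cbx2, Cbx8, Bmi1, Pcgf2 and Phc1 and the highest of Ring1. It also had the highest summed level of leukocyte genes of the tumors (10716.5, others 321 to 2910) and of 3 heart muscle genes (24646, others 109 to 1503) and 5 endothelial genes (4556, others 701 to 2760), and the lowest of the neuroendocrine (34114.5) and proliferation (21134) genes. The part of these in its PRC1 values was not tested. Without tumor 7 the log2 fold changes were 4.35 for Scml2, 3.72 for Cbx2, 2.23 for Phc1, 1.79 for Pcgf2, -0.95 for Cbx7 and -1.05 for Ring1.

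Tumors that share a title number were not uniformly alike. The 2 tumors numbered 159 differed by 0.01 on the log2 scale in Pcgf2 and in Phc1, but by 0.66 in Scml2 and 0.75 in Bmi1. The 3 tumors numbered 201 spanned 1.27 in Scml2, 1.05 in Cbx2 and 0.33 in Cbx7. The SD over all 7 tumors was largest for Scml2 (0.58) and Cbx2 (0.46) and smallest for Scmh1 (0.18).

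The 2 trachea-titled tumors were compared with the 4 lung-titled ones, a contrast that played no part in choosing the genes. By limma 0 of the 9 passed an adjusted p of 0.05 over 23282 genes, and 0% of all genes were called in either direction, while 8.96% had an unadjusted p under 0.05. By edgeR on 5 of these tumors 0 of the 9 passed as well. The lowest adjusted p of the 9 was that of Cbx2 (limma adjusted p = 0.466), the 1 gene of the 9 with an unadjusted p under 0.05, with 2230 and 1443 normalized counts in the trachea-titled tumors and 2805 to 3651 in the others. Its log2 difference was -0.78 (SE 0.24). Differences of the other 8 lay between -0.59 (Scml2) and 0.23 (Cbx7). Tumor 7 is one of the trachea-titled tumors.

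The 5 genes whose pattern over the 12 samples was most like that of Scml2 were Dynlt1a, Rgs16, Map2, Sgo2a and Ckap2l. Likeness was the root-mean-square difference of log2(value + 1) after centring each gene on its own mean, over 16517 other genes, and ran from 0.31 for Dynlt1a to 0.41 for Ckap2l. Dynlt1a, a dynein light chain gene with near-identical copies whose counts are uncertain, had 6.16 ± 1.55 (SD, n = 5) and 143 ± 41.7 normalized counts (SD, n = 7). Map2, a microtubule protein of neurons, had 296 ± 20.2 and 5502 ± 2009. Sgo2a, which protects cohesion of sister chromatids, had 20.7 ± 3.40 and 439 ± 122. These genes were picked by likeness to a gene chosen for this contrast, and their levels are a description.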

How the data were processed

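Poly-A RNA of 5 normal lungs and 7 tumors was sequenced. The deposited table holds a signal per gene, which the values show to be whole reads divided by 1 size factor per sample. Per the submitters' processing notes, featureCounts, DESeq2 and GRCm39 were used; aligner, annotation and strand setting are not given in the sources used here. Whole reads were recovered for 100% of values (tolerance 0.01); tumor 3 was left out of the count tests because its step could not be checked. Symbols and exon lengths came from GENCODE M21, which named 29982 of 30399 identifiers. Genes with a mean of at least 1 (23674) were fitted with limma 3.58.1 (R 4.3.3) on log2(value + 1), with Benjamini-Hochberg adjustment over all of them and calls at 0.05. Trachea-titled and lung-titled tumors were fitted separately. The 9 subunits and all gene lists were chosen with earlier results of these data known. Named outside the 9 were Rnf2, Cdkn2a, Cdkn2b, paralogs of the 9, the 3 called genes per list and direction with the largest change, and the 5 genes nearest to Scml2 in pattern. Usp16, Mysm1, Ddx4, Dazl, Sycp1, Acrv1, Prm1, Hoxa9, Hoxb8 and Hoxb9 were added after their values were seen. Alternatives were edgeR 4.0.16 and DESeq2 1.42.0 on 11 samples, other scalings, filters and pseudocounts, a Y-linked covariate, averaging or correlating same-numbered tumors, and leaving out each sample. The fitting code was tested on simulated data. Some genes of the lists and families are not reported here.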

Additional observations from a re-analysis of the deposited data

Results flagged for a closer look

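In each group of 5 normal lungs or 7 tumors, the gap between the most extreme sample and its nearest neighbour was set against the range of the group on the log2(value + 1) scale. Of 58 groups checked 4 stood out, where chance flags about 1 in 20 groups. Pcgf5, a variant PRC1 subunit, was 7.69 in tumor 2 and 9.51 to 10.21 in the other tumors. Tfdp1, a partner of E2F factors, was 11.43 in tumor 7 and 12.05 to 12.47 in the others. Cbx6 was 1.05 in normal lung 2 and Hoxd13 was 1.27 in normal lung 4, each at 0 in the other 4 normal lungs, and both are levels under the floor of 3 reads. None of the 9 subunits described was among the 4.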

How the results depend on the processing

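Across 23 alternatives for tumors against normal lung, each of the 9 subunits kept the sign of its log2 fold change, 4 of them stayed at 1 or more, and Scml2 ranged from 4.12 to 4.46. The number at -1 or less was 0 as reported, 2 without the trachea-titled tumors, 1 with the Y-linked covariate, and 0 to 2 when 1 sample was left out, since Cbx7 and Ring1 both lie at -0.99. Scaling to equal totals moved the median of all genes from 0.04 to 0.24 and Scmh1 to 0.88. Of the other PRC1 genes 16 to 22 were called higher and 2 lower. The 16 came with the Y-linked covariate, where 5874 of all 23674 genes were called higher and 5758 lower. The 22 came with edgeR, where 6384 of 18308 genes were called higher and 4821 lower. No subunit was called between trachea-titled and lung-titled tumors while both trachea-titled tumors were kept (0 by limma, 0 by edgeR). No alternative for that contrast took shared title numbers into account. No paired analysis was possible because normal lungs and tumors share no title number. Family shares of Phc1 and Bmi1 moved when the longest transcript gave the length. Under either length 3 of the subunits had a higher share of their family in every tumor and 2 a lower one. Depth limits Scml2 in normal lung, at 4 to 7 reads.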
